A study of Mus musculus with 6 samples.

Results

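The 39 Hox genes of the mouse, which lie in the HoxA, HoxB, HoxC and HoxD clusters, were examined for binding of Dppa2 in embryonic stem cells (ESCs). They were taken by name from the protein-coding genes of the GENCODE M1 annotation of mm9, where they are 39 of 22225 distinct gene symbols on the chromosomes of the peak list. The data are an anti-V5 chromatin immunoprecipitation followed by sequencing (ChIP-seq) on CGR8, a feeder-free mouse ESC line kept in serum and leukemia inhibitory factor. These cells stably expressed Dppa2 with an N-terminal V5 tag from a pPyCAG vector under puromycin selection, and parental CGR8 cells without the tag served as the control ChIP. Each ChIP took 100 x 1e6 cells and gave 1 library, so no replicate error can be given, and binding was that of the tagged protein made from the vector. The number of clones behind the library is not given in the sources used here. Of the 6 samples of the series, the control entered through the authors' peak calling only, and the ChIPs against 4 histone modifications (H3K4me1, H3K4me3, H3K27ac and H3K9me3) were not analysed here.

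Hox genes encode homeodomain transcription factors that set positional identity along the body axis and in the limbs. Within a cluster they are transcribed in the same direction, and genes at the group 1 end are switched on earlier and further towards the head than those at the group 13 end. Members with the same number in different clusters are paralogues, descended from 1 ancestral gene. In ESCs the clusters are known as regions of Polycomb repression that carry H3K4me3 and H3K27me3 together, and their genes become active during differentiation. Dppa2 is a SAP-domain protein of early embryonic and germ cells, and the study asked where in the ESC genome it binds.

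Dppa2 was bound at 2 of the 39 Hox genes, Hoxd1 and Hoxd12. A gene was counted as bound when the midpoint of a peak lay within 1000 bp of the transcription start site (TSS) of any of its transcripts. The share was 5.13% (0.627 to 17.3%, the exact Clopper-Pearson interval at 95%, which covers counting error alone), and neighbouring genes of a cluster are not independent of each other. Over all protein-coding genes, 3159 of 22225 were bound, or 14.2%, a value inside that interval. All of the bound Hox genes were in HoxD, with 2 of its 9 genes, whereas 0 of 11 genes in HoxA, 0 of 10 in HoxB and 0 of 9 in HoxC had a peak. The exact 95% intervals were wide, from 2.81 to 60% in HoxD and from 0 to 28.5% in HoxA. They were 0 to 30.8% in HoxB and 0 to 33.6% in HoxC, so they all overlapped. The share of bound protein-coding genes on the chromosomes that carry these clusters was 13.8% on chromosome 2 (HoxD), 12.3% on chromosome 6 (HoxA), 18.9% on chromosome 11 (HoxB) and 17.8% on chromosome 15 (HoxC). Each of these shares lay inside the interval of its cluster. Of the 84 annotated TSSs of the Hox genes, 2 lay within 1000 bp of a peak midpoint, so alternative starts added none in any cluster.

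Hoxd1 (ENSMUSG00000042448), the group 1 gene of HoxD, which takes part in the development of pain-sensing neurons, lies on the plus strand at chr2:74601037-74603200 of mm9. Its peak spanned chr2:74600636-74602049, which is 1414 bp. The peak score, in which a p-value of 1e-10 from MACS gives 100 and one of 1e-20 gives 200, was 326. This placed it at rank 971 of 3336 peaks, above 70.9% of them. The midpoint fell within coding sequence of exon 1, 305 bp past the TSS, and the peak ran from -401 to 1012 bp relative to the TSS, covering all 774 bp of exon 1 and 46.8% of the gene. The Hoxd1 TSS is a divergent one: the non-coding transcript 6720416L17Rik (ENSMUSG00000075277) starts on the minus strand 84 bp upstream, at 74600953. The midpoint of the same peak lay 389 bp upstream of the 6720416L17Rik TSS, so this peak counted for both genes.

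Hoxd12 (ENSMUSG00000001823), a posterior gene at the other end of the cluster with a role in limb and digit patterning, lies on the plus strand at chr2:74512986-74515763. Its peak at chr2:74512885-74514324 was 1440 bp wide and had a score of 128, rank 2924, above 12.4% of all peaks. Its midpoint was 618 bp into the gene and also fell within coding sequence of exon 1. The peak ran from -101 to 1338 bp relative to the TSS, over all 726 bp of exon 1 and 48.2% of the gene length. Among the 3159 bound protein-coding genes the midpoint lay at a median of 120 bp downstream of the TSS (quartiles -28 and 289 bp), and 95.6% of them had their midpoint less far downstream than Hoxd12 and 76.8% less far than Hoxd1. Hoxd1 and Hoxd12 have 1 annotated TSS each, whereas a gene with several was measured from the one nearest to a peak. The offsets are therefore not fully alike. Among peaks with a score of at least 200, which is a p-value of at most 1e-20, Hoxd1 was the only Hox gene left, 1 of 39, beside 8.08% of all protein-coding genes. A window of 500 bp around the TSS also left Hoxd1 alone, since the Hoxd12 midpoint lies beyond it. No replicate of the library could be used to check either peak.

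The sequence just before the TSS is shown for the bound genes and a paralogue of each, because the 4 promoters differ in the dinucleotide CpG, in which bound promoters over the whole list are rich. Each line gives the 100 bases that end at the base before the main TSS, read 5′ to 3′ on the gene's own strand in mm9, with each CpG in capitals. None of these bases is annotated as UTR. The intervals are chr2:74600937-74601036 (plus) for Hoxd1, chr11:96226966-96227065 (plus) for Hoxb1, chr2:74512886-74512985 (plus) for Hoxd12 and chr15:102767088-102767187 (plus) for Hoxc12.
Hoxd1: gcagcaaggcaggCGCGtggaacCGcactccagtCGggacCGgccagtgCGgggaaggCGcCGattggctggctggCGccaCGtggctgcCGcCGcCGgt
Hoxb1: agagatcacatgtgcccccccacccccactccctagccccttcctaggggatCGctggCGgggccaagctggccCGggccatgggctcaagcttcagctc
Hoxd12: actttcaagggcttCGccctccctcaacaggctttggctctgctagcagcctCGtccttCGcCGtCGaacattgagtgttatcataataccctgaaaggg
Hoxc12: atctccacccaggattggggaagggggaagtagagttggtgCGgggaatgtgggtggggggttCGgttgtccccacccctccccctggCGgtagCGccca
Hoxd1 had 13 CpGs in this stretch and Hoxb1 3. In group 12, Hoxd12 had 5 and Hoxc12 had 4. The median over all protein-coding genes was 4, and 87.8% of them had fewer than Hoxd1 and 50.6% fewer than Hoxd12. The number of CpGs before the TSS was thus far above the median at 1 of the bound genes and near it at the other.

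The peaks were centred in the first coding exon, and 180 bases of it around each midpoint are shown to place the peak in the gene, again with CpG in capitals and on the plus strand of mm9. They lie at chr2:74601252-74601431 for Hoxd1 and chr2:74513514-74513693 for Hoxd12.
Hoxd1 exon 1: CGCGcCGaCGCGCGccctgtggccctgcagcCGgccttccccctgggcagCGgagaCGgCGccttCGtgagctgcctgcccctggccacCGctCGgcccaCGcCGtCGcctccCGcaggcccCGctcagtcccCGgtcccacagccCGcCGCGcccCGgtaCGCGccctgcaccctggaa
Hoxd12 exon 1: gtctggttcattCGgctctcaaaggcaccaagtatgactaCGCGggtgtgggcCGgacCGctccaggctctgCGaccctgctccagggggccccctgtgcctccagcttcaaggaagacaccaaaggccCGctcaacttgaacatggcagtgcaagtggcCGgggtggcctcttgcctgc
The Hoxd1 stretch held 25 CpGs at a GC content of 79.4%, and the Hoxd12 stretch 8 CpGs at 63.3%. Over the whole peak, Hoxd1 had 122 CpGs, a GC content of 68.6% and an observed-to-expected CpG ratio of 0.734. This ratio sets the CpGs found against the number that the C and G content would give, and falls well below 1 in most of the genome. The Hoxd12 peak had 72 CpGs, 60.2% GC and a ratio of 0.552. The medians over the 3336 peaks were 97 CpGs, 62% GC and a ratio of 0.713 (quartiles 0.549 and 0.826), so that the Hoxd1 peak lay close to the median ratio and the Hoxd12 peak close to the lower quartile.

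**Figure D1:**
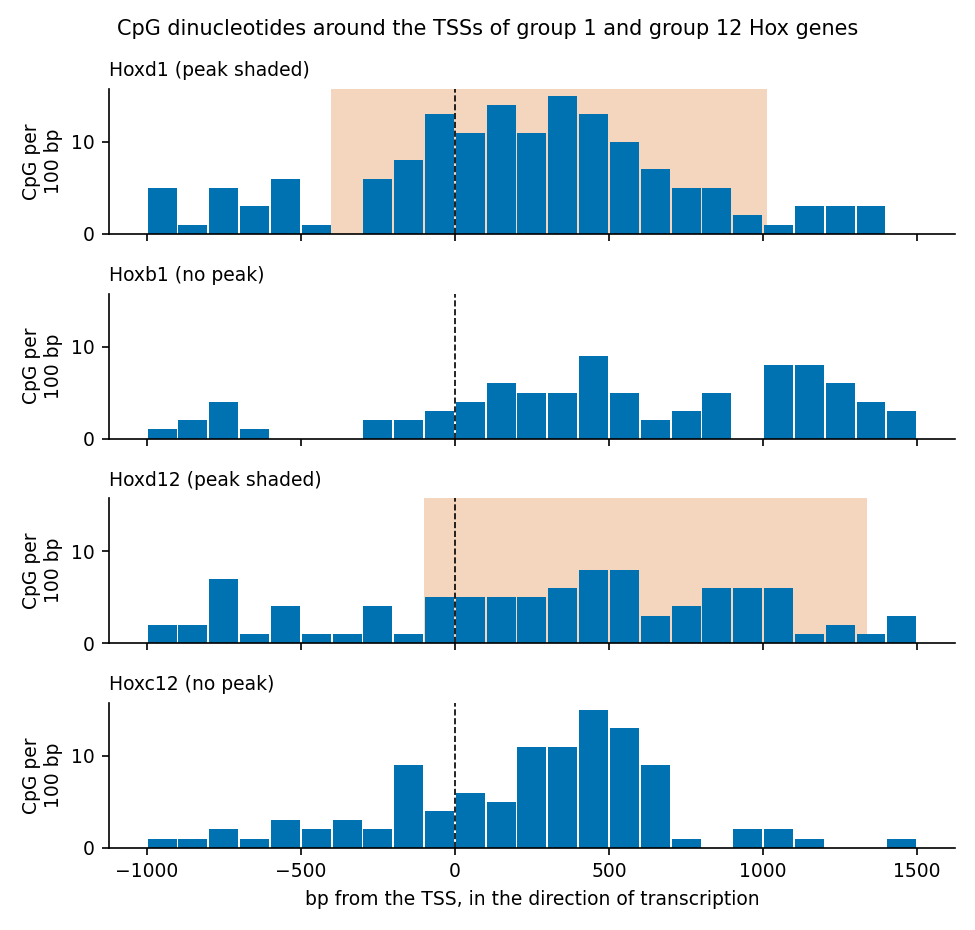
CpG dinucleotides in bins of 100 bp (y axis) by distance from the main TSS in bp (x axis), for the group 1 genes Hoxd1 and Hoxb1 and the group 12 genes Hoxd12 and Hoxc12, with the extent of the V5-Dppa2 peak shaded. The Hoxd1 peak lies over the richest bins of its gene, with up to 15 CpGs, while Hoxc12 reaches 15 in 1 bin without a peak and Hoxd12 reaches 8 inside its peak.

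The paralogues of the bound genes had no peak. In the 1000 bp around the main TSS, Hoxb1, which acts in hindbrain patterning, had a CpG ratio of 0.428, against 0.795 for Hoxd1. Hoxc12, the only paralogue of Hoxd12, had a ratio of 0.893, higher than the 0.527 of Hoxd12, and the nearest peak to it was 567 kb away. Between these pairs the bound gene therefore had the higher ratio in group 1 and the lower one in group 12, as the plot of CpGs around these TSSs shows. In the other 11 paralogue groups no member was bound.

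**Figure D2:**
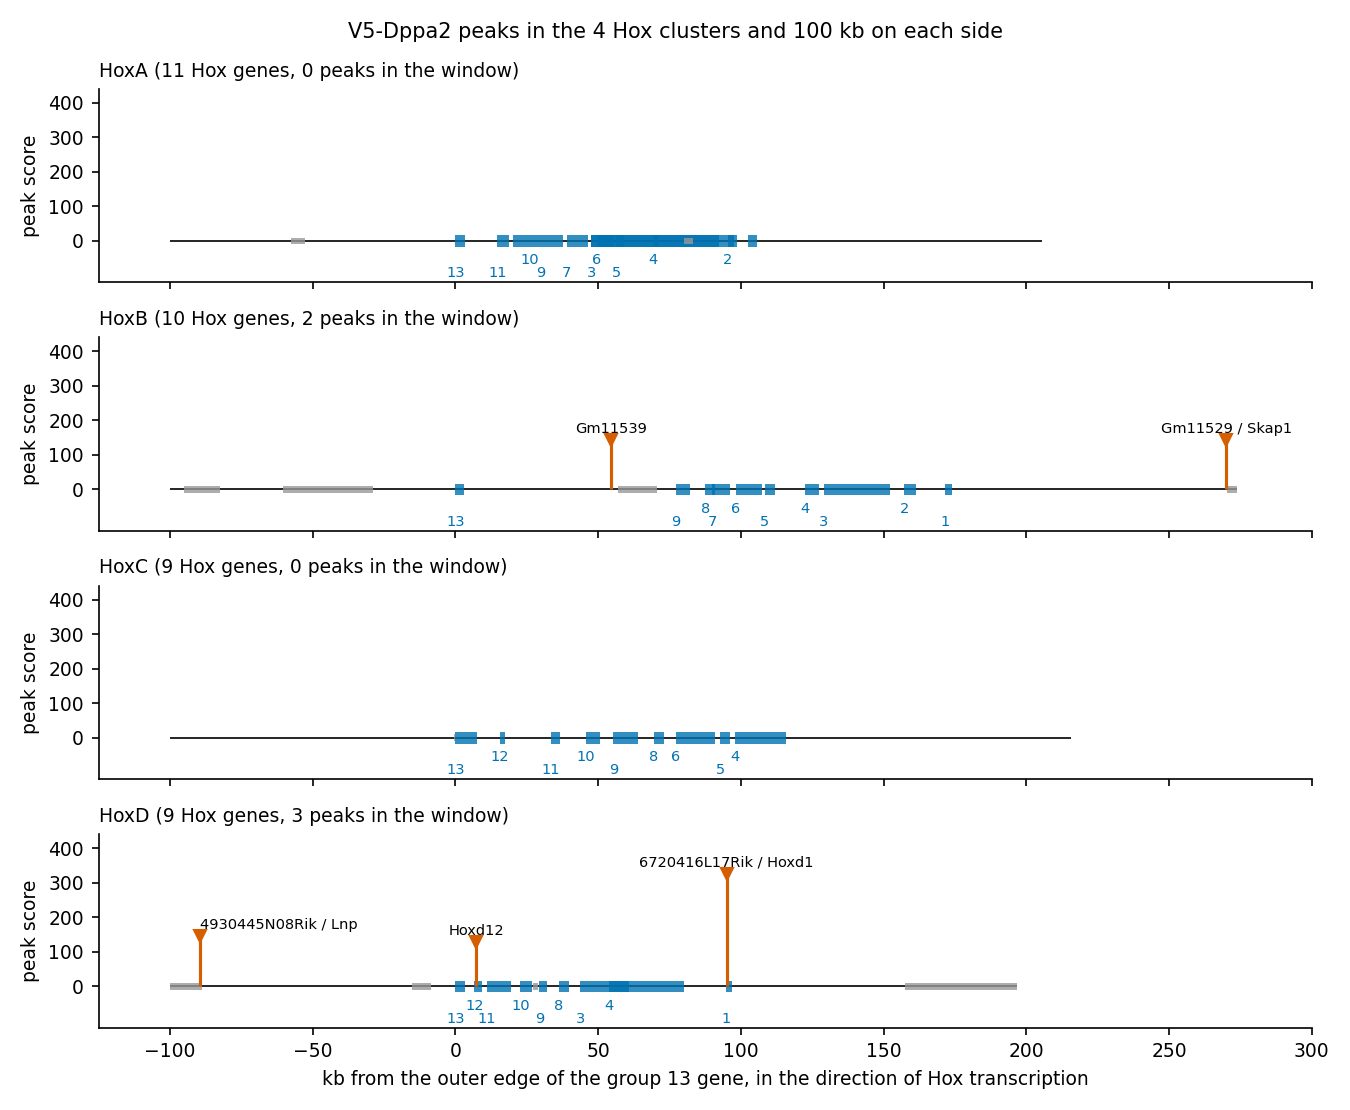
V5-Dppa2 peaks (orange, height is the peak score) in the 4 clusters and 100 kb on each side, with Hox genes in blue, other protein-coding genes in grey and blue numbers giving the paralogue group of labelled genes at the main TSS. The x axis gives kb from the outer edge of the group 13 gene in the direction of Hox transcription: HoxD has 3 peaks, HoxB 2, and HoxA and HoxC have 0.

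The 4 clusters and their 100 kb flanks held 5 peaks, 3 inside a cluster and 2 in a flank. From low to high coordinates on chromosome 2, the first was in the HoxD flank at chr2:74416299-74417436, 89.5 kb before the cluster, with a score of 145 and rank 2654. It lay at Lnp, which encodes the endoplasmic reticulum protein lunapark and is a known neighbour of HoxD. Its midpoint was 70 bp downstream of the nearest Lnp TSS, in a UTR, and 266 bp upstream of the non-coding transcript 4930445N08Rik. The peaks at Hoxd12 and Hoxd1 followed at 74513604 and 74601342 (midpoints), with Hoxd11, Hoxd10, Hoxd9, Hoxd8, Hoxd4 and Hoxd3 between them without a peak. Evx2, a homeobox gene next to Hoxd13, and Mtx2 beyond Hoxd1 had none within 1000 bp. The peaks inside HoxD thus lay near opposite ends of its 96.8 kb.

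In HoxB the list held 1 peak inside the cluster and 1 in a flank, and neither was at a Hox gene. The first, chr11:96109635-96110714 with a score of 142 (rank 2690), lay between Hoxb13 and Hoxb9 at the pseudogene Gm11539 (ENSMUSG00000083337, plus strand, chr11:96109947-96110503). It covered the whole 557 bp of the pseudogene. Of its 36-mers, stretches as long as the alignment seed, 38.9% occurred more than once in mm9, a higher share than in 90.7% of all peaks, while the median over all peaks was 0%. Reads with several alignments were kept at their best one, so reads from other copies could be placed there; their part in this peak was not tested. The second, chr11:96325143-96326334 with a score of 143 (rank 2688), lay 96.2 kb beyond the Hoxb1 end. Its midpoint was 123 bp downstream of the TSS of the lincRNA Gm11529 and 169 bp upstream of the nearest TSS of Skap1. Skap1 encodes an adaptor protein of T cells. The peaks at Hoxd1, Hoxd12, Lnp and Skap1 had 0% repeated 36-mers.

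**Figure D3:**
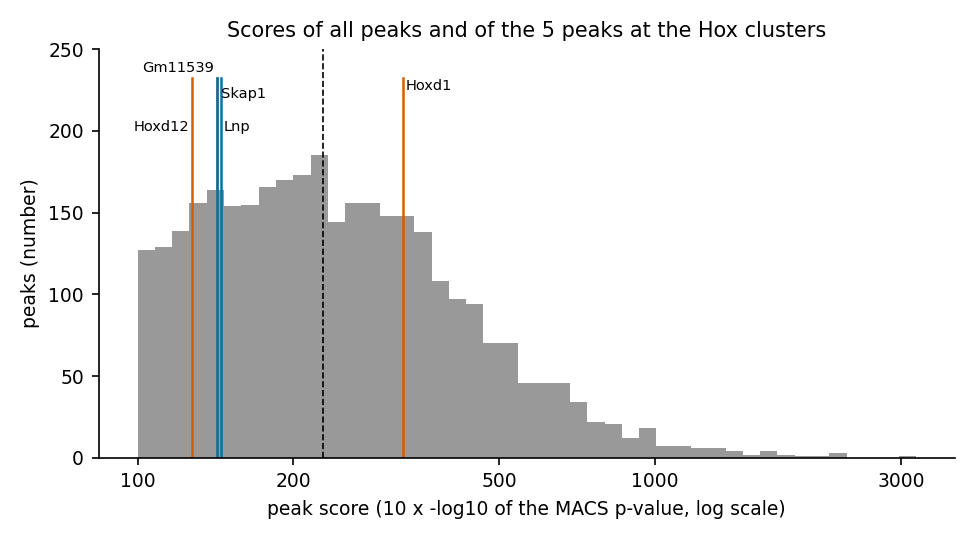
Histogram of the scores of all 3336 peaks (x axis, on a log scale, where 100 stands for a p-value of 1e-10; y axis, number of peaks) with the 5 peaks at the Hox clusters as lines, orange inside a cluster and blue in a flank; the lines of Gm11539 and Skap1 nearly coincide. Hoxd1 lies to the right of the dashed median of 228 and the other 4 lie to its left, between 128 and 145.

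Of the 5 peaks, only Hoxd1 had a score above the median of the list, which was 228 with quartiles at 156 and 348. The other 4 had scores from 128 to 145, all under the lower quartile and near the threshold of the list, which is a score of 100. Their widths ran from 1080 to 1440 bp, and 3 of these 4 were narrower than the median peak of 1433 bp. The HoxA and HoxC windows held no peak of the list, which does not show signal too weak for its thresholds.

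The distance from a Hox gene to the nearest peak depended on the cluster. In HoxD it ran from 0.305 kb at Hoxd1 to 36.2 kb at Hoxd4, with a median of 15.5 kb. Just outside the window of 1000 bp, Hoxd11 was 3.85 kb and Hoxd13 7.24 kb from the midpoint of the Hoxd12 peak, so that no unbound Hox gene lay close to the edge of the window. Hoxd12 itself, at 0.618 kb, was inside this window but outside one of 500 bp. In HoxB the range was 22.6 kb (Hoxb9) to 103 kb (Hoxb2), with Hoxb13 at 54.5 kb and Hoxb1 at 98.2 kb. In HoxC it was 469 kb (Hoxc4) to 582 kb (Hoxc13). In HoxA the median was 938 kb and the farthest gene was Hoxa13 at 990 kb. The ranges of HoxA, HoxC and HoxD did not overlap with each other, whereas that of HoxB overlapped with HoxD. Over all 39 genes the median was 469 kb, against 139 kb for all protein-coding genes (quartiles 30.1 and 454 kb). Genes of 1 cluster share their nearest peaks, so these are 4 positions in the genome rather than 39.

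**Figure D4:**
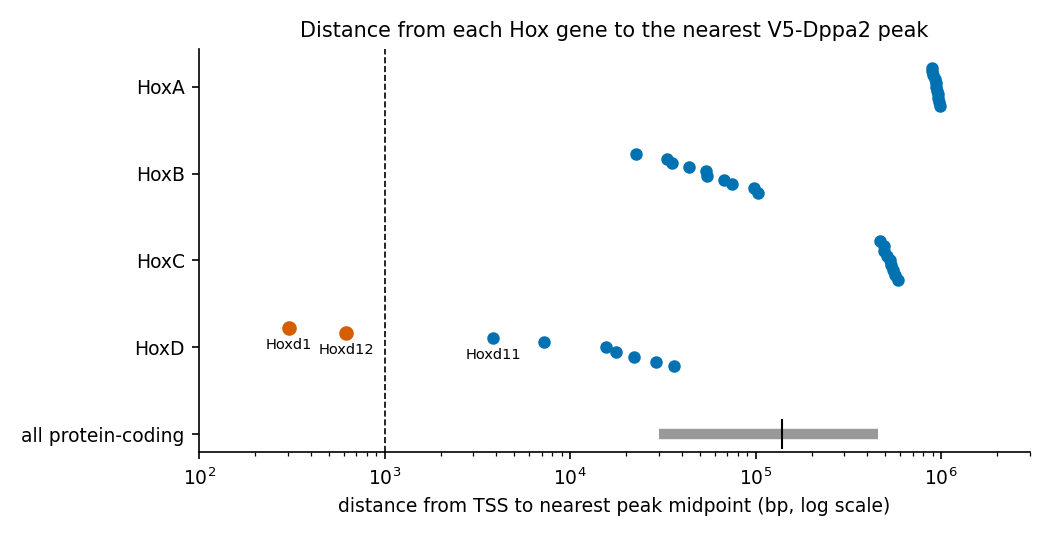
Distance from each Hox gene to the nearest peak midpoint in bp (x axis, log scale), by cluster (y axis), with bound genes in orange, unbound genes in blue and the bound window of 1000 bp as a dashed line; the grey bar gives the quartiles and the black mark the median of all protein-coding genes. HoxA and HoxC lie at 469 kb and beyond, and HoxD at 36.2 kb and below.

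Promoters of bound genes in this list are rich in CpG, and the Hox promoters were compared with all others on that scale. In the 1000 bp around the main TSS the median CpG ratio was 0.641 for Hox genes (quartiles 0.46 and 0.726), 0.545 for all protein-coding genes and 0.776 for bound ones. The median GC content was 55.9% for Hox genes, 54.8% for all and 63.2% for bound genes. By cluster the median ratio was 0.717 in HoxD, 0.677 in HoxA, 0.651 in HoxC and 0.44 in HoxB. The ranges overlapped broadly, from 0.257 (Hoxd4) to 0.899 (Hoxd13) in HoxD and from 0.421 (Hoxa2) to 0.998 (Hoxa5) in HoxA. HoxA, without a peak, thus held promoters with ratios above that of Hoxd1.

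The bound share of all protein-coding genes rose with the CpG ratio, from 0.72% in the lowest decile to 34.7% in the highest. Of the 39 Hox genes, 25 were in the upper 5 deciles. The highest decile held Hoxa4, Hoxa5, Hoxa13, Hoxc12 and Hoxd13, and 0 of these 5 were bound. Hoxd1 fell in decile 8, where 20.4% of genes were bound, and Hoxd12 in decile 5, where 12.3% were. Weighting the share of each decile by its number of Hox genes gave 16.8%, beside the 5.13% of the Hox genes. Among the 5440 other genes with a ratio between the Hox quartiles, 828 or 15.2% were bound (95% exact interval 14.3 to 16.2%). With GC content also between the Hox quartiles it was 416 of 3410, or 12.2%. These shares describe promoters of like composition, and none is a test of the Hox genes, of which 2 were bound.

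**Figure D5:**
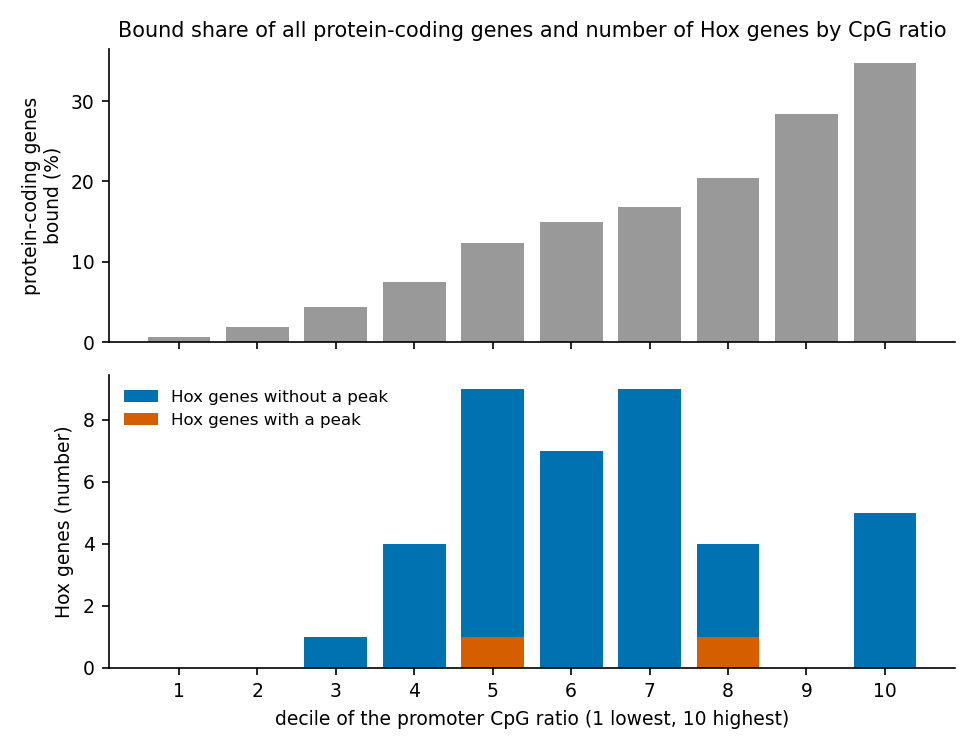
Share of protein-coding genes bound by Dppa2 in percent (upper panel) and number of Hox genes with and without a peak (lower panel), by decile of the promoter CpG ratio (x axis, 1 lowest). The share rises to 34.7% in decile 10, which holds 5 Hox genes and 0 with a peak.

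Other features of the Hox promoters were examined in the same way. A divergent TSS of another gene within 1000 bp upstream was present at 5 of 39 Hox genes, or 12.8%, and at 11.6% of all protein-coding genes. They included Hoxd1, Hoxa2, Hoxa11 and Hoxc13, and of the 5 only Hoxd1 was bound. Over all protein-coding genes, 17.3% of those with such a TSS and 13.8% of those without were bound. Of the 39 promoters, 30 held no 36-mer that occurs more than once in mm9, and the highest share was 10.9% at Hoxd3. Only exact repeats were counted, and read placement was not measured. The TSSs of non-coding genes inside the clusters were also compared with the peaks. In HoxD 1 of 6 of these genes (6720416L17Rik) and in HoxB 1 of 7 (Gm11539) had a peak midpoint within 1000 bp. In HoxA it was 0 of 8 and in HoxC 0 of 4. The peak at 6720416L17Rik is the one already counted at Hoxd1. The bound share over all non-coding genes was not counted, so these numbers cannot be called high or low.

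Genes that act with the Hox genes were counted by the same rule. Of 9 TALE homeodomain cofactors, which bind DNA together with Hox proteins, 1 was bound, Pbx3, with a score of 162 and a midpoint 28 bp upstream of the TSS. Those without a peak included Meis1, Meis2 and Meis3. Of 8 ParaHox and Evx genes, the closest homeobox relatives and neighbours of the clusters, 1 was bound, Cdx1, with a score of 137 and a midpoint 231 bp downstream. Cdx2 and Cdx4, which like Cdx1 regulate Hox genes in the embryo, and Evx1 and Evx2 had no peak. In the retinoic acid pathway, a known inducer of Hox genes, 4 of 15 genes were bound. They were Rxra, a nuclear receptor (score 239), Crabp1, a retinoic acid carrier (score 201), and Aldh1a3 and Aldh1a2, enzymes of retinoic acid synthesis (scores 174 and 145). The receptors Rara, Rarb, Rarg, Rxrb and Rxrg and the degrading enzymes Cyp26a1, Cyp26b1 and Cyp26c1 were without a peak. So were the synthesis enzyme Aldh1a1, the carrier Crabp2 and the retinol uptake receptor Stra6. Each kind of bound gene thus also had members without a peak. The shares of 11.1%, 12.5% and 26.7% stand beside 14.2% for all protein-coding genes, in lists of 9, 8 and 15 genes.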

How the data were processed

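The peak list of 1 V5-Dppa2 ChIP-seq library was analysed. The deposited score of a peak is the negative log10, times 10, of the p-value that MACS gave the authors for it over the control ChIP. Before that, low-complexity reads were dropped, the others were aligned to mm9 with Bowtie 0.12.7, where only the best alignment of a multi-mapping read was retained, and duplicates were discarded. Peaks were called with MACS 1.4.2, with 1e-10 as the highest p-value and 100 as the lowest read number allowed. Picard 1.81 is also named in the submitters' processing notes. All 3336 peaks carry names numbered after TSSs and 98.4% of midpoints lay within 1000 bp of an annotated TSS, so the list shows little about binding between genes. It gives no summits, read counts or depth. The depth is therefore unknown, and a gene without a peak may hold signal under the thresholds.

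Midpoints were compared with the TSSs of all transcripts of GENCODE M1 on mm9, and gene symbols were counted once. Hoxa3 has 2 gene entries. A cluster runs from the lowest start to the highest end of its Hox genes. GC content and the CpG ratio were taken over 1000 bp around the TSS shared by most transcripts, the most 5′ one on a tie. No test was made, as there is 1 library and no comparison between conditions; shares are descriptions. Positions are 1-based. The steps were tested on simulated data. Genes were named by rule: bound Hox genes, the first, last and nearest Hox gene of each cluster, genes at peaks in the windows and bound genes of 3 related lists; other genes named were chosen after their values were seen, and some genes that the rule names are not reported here. The members, lists and alternatives were chosen with earlier results of these data known. Python 3.11.15 was used with numpy 2.4.6, pandas 2.3.3, scipy 1.17.1, numba 0.67.0 and matplotlib 3.10.9.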

Additional observations from a re-analysis of the deposited data

How the results depend on the processing

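No paired analysis was possible because the peak list comes from a single library, which also leaves no replicate to omit. When peaks under a score of 200 were dropped, bound Hox genes fell from 2 to 1, peaks in the windows from 5 to 1, the bound share of all protein-coding genes to 8.08% and that of genes with a Hox-like CpG ratio to 8.22%, and the median distance became 569 kb, as fewer peaks enter. Chosen after seeing the data, the same score left 0 of the TALE cofactors, 0 of the ParaHox and Evx genes and 2 genes of the retinoic acid pathway. A window of 500 bp left 1 bound Hox gene and 12.6% of protein-coding genes. A window of 5 kb gave 3 Hox genes, with Hoxd11 added, and 15.5%. Windows of 2 kb, any base of the peak, TSSs of protein-coding transcripts, merged peaks and gene entries in place of symbols left Hoxd1 and Hoxd12. The bound share of protein-coding genes was 14.7% with windows of 2 kb and 14.6% with any base of the peak. It was 14% with TSSs of protein-coding transcripts and 14.2% with merged peaks. As 98.4% of midpoints lay within 1000 bp of a TSS, wider windows could add little. Flanks of 50 kb held 3 peaks and flanks of 200 kb held 5. Over 2 kb the median CpG ratio of Hox promoters was 0.553 and the GC content 54.5%, and over 500 bp the GC content was 57.2%. These are values of the Hox promoters alone, so they do not show how Hox and other promoters differ at these widths. The whole range of Hox CpG ratios gave 18.5% bound. The cause of the shifts in CpG ratio and GC content was not tested.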

Other observations

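Around HoxA, the nearest midpoints on either side were 2.77 Mb apart, with 27 protein-coding genes between them, 11 of which were the Hox genes. Around HoxC they were 1.3 Mb apart, with 42 protein-coding genes between them, 9 of which were the Hox genes. Windows without a peak set a lower bound on these distances, so they are given as values only. Of all 3315 gaps between neighbouring midpoints, 6.73% were at least as long as that around HoxA and 16% as that around HoxC. By the number of protein-coding genes in the gap the order was reversed, with HoxC at rank 39 and HoxA at rank 107, both with ties. Both gaps were taken because their cluster held no peak, and a share of gaps is not a share of genes. The median gap was 0.256 Mb. The nearest midpoints were 885 kb and 1779 kb from the ends of HoxA, and 717 kb and 467 kb from those of HoxC. HoxB had a peak inside and others at 481 kb and 96.2 kb. HoxD was followed by 939 kb without a midpoint on the Hoxd1 side.

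The clusters differed in overall CpG content. HoxA had 29.8 CpGs per kb over 106 kb and HoxD 28 per kb over 96.8 kb, while HoxB had 20.9 per kb over 174 kb and HoxC 21.5 per kb over 116 kb. In the same order of clusters, 0, 2, 0 and 0 Hox genes were bound. So few bound genes cannot show whether binding follows CpG content, which was not tested.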
